A study of Ovis aries with 10 samples.

Results

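The genes of ubiquitin ligases and deubiquitinases gave rise to 310 of the 8721 circular RNAs (circRNAs) listed in libraries of small-tailed Han sheep. A circRNA, or ring, is a transcript whose downstream splice site is joined back to an upstream one, at the back-splice junction. Members were chosen by the symbol of the host gene alone: USP, UBE2, UBE3, UBE4, UBR, HERC, HECTD, HUWE1, CUL, FBXO, FBXL, FBXW, RNF, TRIM, NEDD4, BIRC6, MIB, KLHL, ITCH and SMURF genes, with UBE3A and USP3 left out. They came from 109 of 3435 host genes and took 17435 of 445393 junction reads, the reads that cross a back-splice junction.

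There were 5 libraries from sheep after sham surgery and 5 from sheep whose ovaries had been removed, all of the same breed and with no transgene named. The stated question is what estrogen does to muscle in females. The tissue label is longissimus dorsi, a back muscle, while the cell type label is primary myoblasts. A culture protocol with estradiol accompanies every sample, but none carries a dose, and no age is given. The labels do not say that libraries came from separate animals, so a p-value here covers only the spread among these 10 libraries, which may be technical.

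Ubiquitin is a small protein that is attached to other proteins as a signal, often for degradation by the proteasome. An activating enzyme (E1) charges it, a conjugating enzyme (E2) carries it, and a ligase (E3) chooses the substrate, while deubiquitinases take it off again. HECT ligases pass ubiquitin through their own active site, RING and U-box ligases bring the E2 to the substrate, and cullins are scaffolds that dock F-box or BTB-Kelch proteins as substrate receptors. In skeletal muscle the pathway is known for protein loss during atrophy, with FBXO32 (atrogin-1) and TRIM63 (MuRF1) as its classic muscle ligases. A circRNA does not encode the full protein, and its level is not the level of the host's messenger RNA.

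Depth was modest. The sham libraries held 35731 to 49887 junction reads and the ovariectomized libraries 39045 to 67061, with ovariectomized replicate 5 the deepest. The smallest listed count was 2 reads, and a circRNA not listed for a library was entered as 0 there. In the check of the labels, 11 of 13 adult muscle fiber genes hosted a circRNA, led by TTN and NEB. Of 12 myoblast and satellite cell genes 3 did (MET, DES and NCAM1), while PAX7, MYF5, MYOD1 and MYOG were at 0, as were all 8 proliferation, all 6 fibroblast and all 5 immune genes. Of 6 endothelial genes 4 did (FLT1, VWF, TEK and PECAM1), with 203 reads together, and of 4 adipocyte genes 1 did (PPARG), with 18 reads. The summed endothelial share ranged from 0.0301% to 0.0673% in sham and from 0.0298% to 0.0641% in ovariectomized libraries. The summed share of the fiber genes ranged from 2.97% to 4.84% of junction reads in sham and from 2.54% to 4.52% in ovariectomized libraries. For the myoblast and satellite cell genes it ranged from 0.113% to 0.206% and from 0.152% to 0.313%. The 1 host of these tested had a log2 fold change (ovariectomized minus sham) of 0.68 in limma. Its unadjusted p was under 0.05, as for 5.67% of all tested hosts (43), and its adjusted p was not. These counts do not settle the tissue label against the cell type label, since many genes give no circRNA.

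Member circRNAs resembled the rest of the table in size. Exonic members had a median spliced length of 296 bases, against 293 over all exonic circRNAs, and both medians were 2 listed exons. Of the 310 members 295 (95.2%) were labelled exonic, against 90.9% of all circRNAs, and 15 were labelled intronic. Members were listed in all 10 libraries in 11.6% of cases (36 members), against 9.24% over the table. They were listed in a single library in 31.3% of cases (97 members), against 37.5%. The median member had 15 junction reads in the 10 libraries together and the median over all circRNAs was 10.

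Together the members took a similar share of junction reads in both groups. The share was 3.05%, 4.19%, 3.23%, 4.57% and 3.99% in sham replicates 1 to 5. In ovariectomized replicates 1 to 5 it was 3.53%, 3.77%, 3.63%, 4.03% and 4.70%. The ranges overlapped, and the means of 3.81% ± 0.648 (SD, n = 5) and 3.93% ± 0.470 (SD, n = 5) differed by 0.126 percentage points, less than either SD. The sign of this difference was not stable. It was -0.0640 without sham replicate 1, -0.0171 without sham replicate 3 and -0.0668 without ovariectomized replicate 5. The most abundant circRNA of the table, novel_circ_0008968 of SENP6 (a SUMO protease and no member), took 0% to 24.3% of junction reads in sham and 0% to 4.83% in ovariectomized libraries. With it left out of the totals, the mean shares were 4.22% and 4.03%, a difference of -0.197 percentage points. In bulk samples like these, fewer cells of a type and less of a circRNA per cell cannot be told apart. Between 94 and 153 members were listed per library, with the lowest number in sham replicate 1.

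HECT ligases and deubiquitinases carried the largest shares of the member reads. The 54 HECT ligase circRNAs of 15 hosts took 22.6% of them, and the 94 deubiquitinase circRNAs of 22 hosts took 20.7%. The 29 circRNAs of 6 UBR proteins (named for the UBR box, a domain that in some of them binds destabilizing ends of proteins) took 17.4%, and the 39 circRNAs of 18 F-box receptors 13.7%. The 52 circRNAs of 28 RING and U-box ligases took 10.9%, the 21 of 10 conjugating enzymes 7.42%, the 14 of 6 BTB-Kelch receptors 5.26% and the 7 of 4 cullins 1.99%. A few hosts dominated: HERC4, UBR3, USP13 and FBXW4 together held 37.6% of member reads, whereas 40 of the 109 hosts gave 1 circRNA each. In each of the 8 classes the group ranges overlapped.

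**Figure D1:**
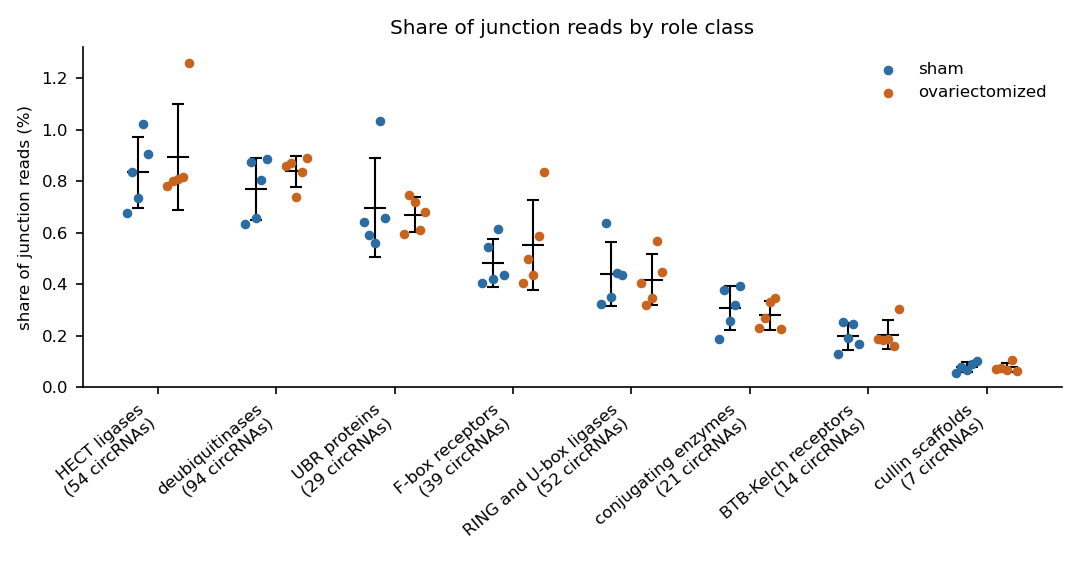
Share of junction reads (%) of each role class in the 10 libraries. Points are libraries, horizontal bars the group mean and whiskers the SD (n = 5 per group). The sham and ovariectomized points overlap in every class, and the highest HECT ligase point, 1.26%, is ovariectomized replicate 5.

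Whether ovariectomy was accompanied by a different level of a member circRNA was tested with limma voom over all 744 circRNAs that passed the filter on low counts (at least 5 libraries with 10 scaled reads, and 15 reads in total). Of the 310 members 36 passed, from 26 hosts, and they held 69.0% of the member reads. No member passed an adjusted p of 0.05 in the limma fit, and neither did any other circRNA (0% of 744 called). At an unadjusted p under 0.05 there were 0 members, against 5.11% of all tested circRNAs (38), and limma trend in place of voom also gave 0 members at either threshold. The lowest adjusted p of a member in the limma fit was 0.811. Of the 36, 13 had a positive and 23 a negative estimate, with a median log2 fold change (ovariectomized minus sham) of -0.12, beside 0.03 over all tested circRNAs. With library totals as the only scaling the member median was 0.01 and that of all tested circRNAs 0.14. The median standard error of a member was 0.36 on the log2 scale. This error holds the spread between libraries as well as counting error. No tested member had groups that did not overlap, against 1.48% of the 744 tested circRNAs (11).

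**Figure D2:**
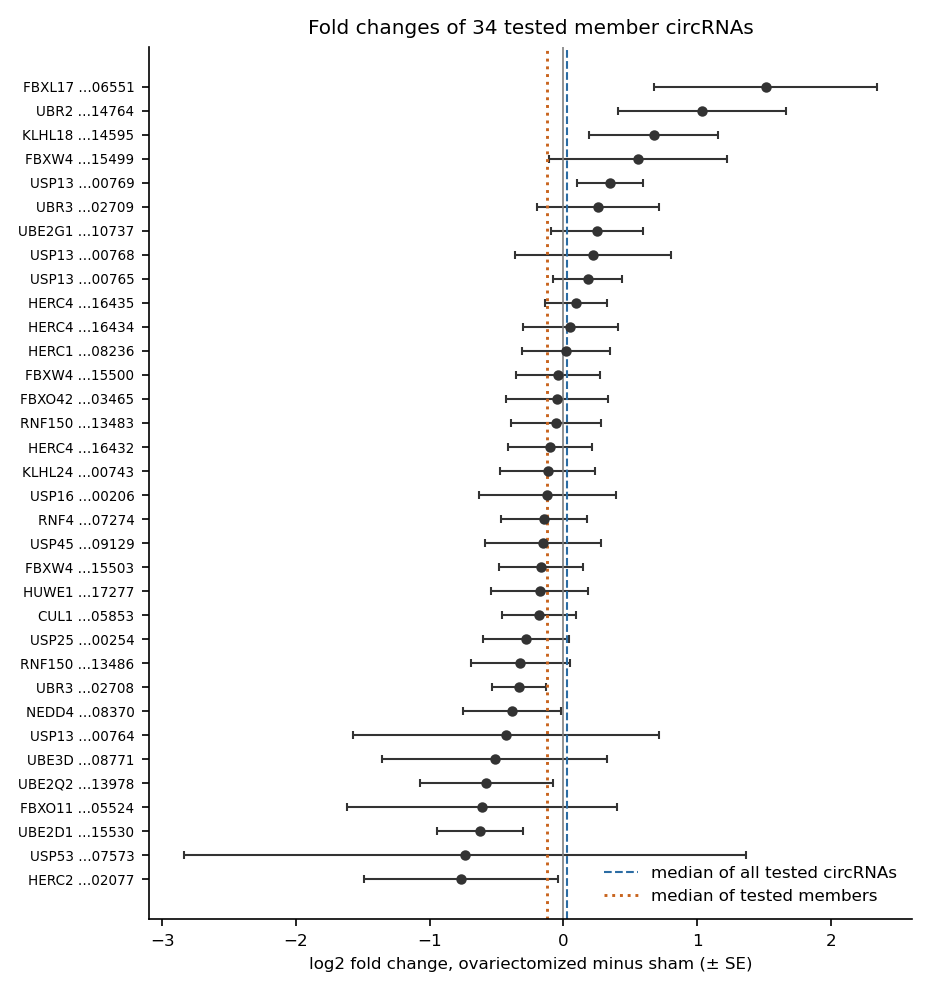
Log2 fold changes (ovariectomized minus sham) of 34 of the 36 tested member circRNAs, with standard errors from the limma voom fit. Estimates run from -0.77 for HERC2 to 1.51 for FBXL17. The dotted line is the median of all 36, -0.12, and the dashed line the median of all 744 tested circRNAs, 0.03.

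Among the conjugating enzymes, UBE2D1 had the smallest p of all members. UBE2D1 encodes an E2 that works with many RING ligases, and it gave 1 circRNA, novel_circ_0015530 (chr22:276368-280227, minus strand, 2 exons, 170 bases spliced). Its normalized junction reads, scaled for library size, were 66.9, 57.3, 44.5, 51.8 and 85.2 in sham replicates 1 to 5. They were 50.5, 47.4, 42.1, 56.8 and 17.6 in ovariectomized replicates 1 to 5. The lowest value was that of ovariectomized replicate 5, and the other ovariectomized values lay within or just below the sham range. The log2 fold change was -0.62 ± 0.32 (SE) with an unadjusted p of 0.0704 and an adjusted p of 0.811 in the limma fit, and it was -0.27 without ovariectomized replicate 5. UBE2Q2, which encodes another E2, was carried by 2 sham libraries. Its leading circRNA, novel_circ_0013978 (chr18:28943279-28963419, plus strand), had 39.7 and 29.7 normalized reads in sham replicates 2 and 3, and between 5.16 and 14.7 in the other 8 libraries. Its log2 fold change of -0.57 ± 0.50 (SE) had an adjusted p of 0.857 in limma and was -0.30 without sham replicate 2. BIRC6, a very large protein that joins E2 and ligase activity, gave the most circRNAs of this class, 6, none of which passed the filter. The leading one, novel_circ_0005667, averaged 10.3 ± 8.19 (SD, n = 5) normalized reads in sham libraries and 4.97 ± 4.03 (SD, n = 5) after ovariectomy, with an exact permutation p of 0.246.

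Among the HECT ligases, HERC4 gave the most abundant member circRNA. HERC4 encodes a ligase with RCC1-like repeats, and novel_circ_0016435 (chr25:23747137-23765250, minus strand, 4 exons, 465 bases spliced) held 1635 of the 2150 HERC4 reads. Its normalized reads were 133, 117, 183, 154 and 154 in sham and 128, 113, 142, 161 and 261 in ovariectomized replicates 1 to 5. The groups overlapped except for ovariectomized replicate 5, which lay above every other library. That library was also the deepest, with 67061 junction reads, and the part of depth in its values was not tested. Its fold change of 0.10 ± 0.23 (SE) on the log2 scale had an adjusted p of 0.963 in limma and turned to -0.12 without that library. HERC1 gave the most circRNAs of the class, 7, and its leading circRNA novel_circ_0008236 averaged 26.2 ± 10.0 (SD, n = 5) in sham libraries and 25.7 ± 8.52 (SD, n = 5) in ovariectomized libraries. HERC2, a giant ligase of the same family with a known part in the DNA damage response, had a log2 fold change of -0.77 ± 0.72 (SE) for novel_circ_0002077, with an adjusted p of 0.875 in limma. That circRNA was not listed in ovariectomized replicate 1, and without this library the value was -0.10.

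NEDD4, a HECT ligase that acts on membrane proteins and is studied in muscle atrophy, gave 5 circRNAs with 141 reads. The 122 reads of novel_circ_0008370 (chr7:52648490-52660539, plus strand) made up most of them, and it was listed in all 10 libraries. Its normalized reads were 16.1, 11, 12.7, 11 and 18.7 in sham and 12.4, 13.4, 8.42, 9.17 and 9.77 in ovariectomized libraries. The ranges overlapped, with 3 ovariectomized libraries below the lowest sham value. The log2 fold change of -0.39 ± 0.37 (SE) had an adjusted p of 0.875 in the limma fit. The other 4 rings of NEDD4 held 4 or 5 reads each and were seen in 1 or 2 libraries.

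The RING and U-box ligases were led by RNF150 and RNF4. RNF150 encodes a membrane-bound RING protein, and novel_circ_0013486 (chr17:16918296-16920612, plus strand) was uneven within both groups. Its normalized reads were 23.5, 54.0, 38.1, 25.9 and 53.0 in sham and 59.8, 19.6, 21.1, 45.8 and 20.8 in ovariectomized libraries. RNF4, a ligase that recognizes SUMO chains, gave a single circRNA, novel_circ_0007274, with 40.8 ± 13.9 (SD, n = 5) normalized reads in sham libraries and 37.5 ± 15.5 (SD, n = 5) in ovariectomized libraries. The classic muscle RING ligase TRIM63 gave 1 circRNA, novel_circ_0003392 (chr2:240765592-240767076), with 2 reads each in replicates 2 and 4 of the sham group and none elsewhere. TRIM54, a relative of TRIM63 in the sarcomere, gave 1 circRNA with 4 reads, all in 1 sham library. These counts are too low for a difference to be detectable at this depth, and the exact permutation p was 0.444 for TRIM63 and 1 for TRIM54.

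RNF169, a RING protein of the DNA damage response, was the only member called under any alternative. Its novel_circ_0012872 (chr15:52809184-52848837, plus strand, 3 exons) had 0, 2, 11, 4 and 5 reads across its junction in replicates 1 to 5 of the sham group and 0 in each ovariectomized library. With 22 reads in all it did not pass the filter. With no filter beyond 1 read, limma voom called 30 of 8721 circRNAs (0.344%) at an adjusted p of 0.05, and this was the single member among them, with an adjusted p of 0.0450. Its exact permutation p was 0.0476, not adjusted for other circRNAs. Over the table, 24 circRNAs had reads in at least 4 sham libraries and none in ovariectomized ones, of which 1 was a member. The reverse pattern was shown by 15 circRNAs, also with 1 member.

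The UBR proteins gave some of the most abundant rings. UBR3 gave 12 circRNAs, and novel_circ_0002708 (chr2:139704443-139714106, minus strand, 4 exons) held 1066 of the 1635 reads. Its normalized reads were 104, 106, 112, 131 and 131 in sham and 76.3, 98.0, 118, 72.4 and 106 in ovariectomized libraries. The ovariectomized values of replicates 1, 2 and 4 lay below the lowest sham value and the rest within its range. Ovariectomized libraries differed by a log2 fold change of -0.33 ± 0.20 (SE), with an adjusted p of 0.821 in limma.

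UBR2, a ligase that recognizes destabilizing ends of proteins, had a higher mean after ovariectomy that rested on 2 libraries. Normalized reads of novel_circ_0014764 (chr20:16358603-16362268, plus strand, 4 exons) were 14.9, 7.71, 5.30, 7.97 and 17.7 in sham. They were 10.3, 14.4, 32.6, 11.9 and 44.9 in ovariectomized libraries. Replicates 3 and 5 of the ovariectomized group stood above every sham library and the other 3 lay within the sham range. On the log2 scale the fold change was 1.04 ± 0.63 (SE), adjusted p 0.821 in limma, and 0.66 without ovariectomized replicate 5. A second UBR2 ring, novel_circ_0014765, starts 4 bases downstream and had 2 reads in sham replicate 4, 4 in ovariectomized replicate 2 and 12 in ovariectomized replicate 5.

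Cullin circRNAs came mainly from CUL1, the scaffold of the ligases that use F-box proteins. Its novel_circ_0005853 (chr4:113087449-113101035, plus strand) held 264 of 274 reads, was the only tested member labelled intronic, and averaged 27.5 ± 5.16 (SD, n = 5) normalized reads in sham libraries and 24.8 ± 6.90 (SD, n = 5) in ovariectomized libraries.

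The F-box receptors included FBXL17, which takes apart faulty BTB protein pairs. Its novel_circ_0006551 (chr5:104944978-104974080, minus strand, 3 exons) had 17.3, 28.6, 24.4, 16.9 and 0 normalized reads in sham and 25.8, 18.6, 18.9, 24.8 and 50.2 in ovariectomized libraries. Sham replicate 5 had no entry and ovariectomized replicate 5 had the highest value, while the other 8 libraries lay between 16.9 and 28.6. With these libraries the log2 fold change was 1.51 ± 0.83 (SE), adjusted p 0.818 in limma, and it was 0.31 without sham replicate 5. FBXW4, an F-box protein with WD repeats, gave novel_circ_0015500 (chr22:22194504-22204780, minus strand) with 57.4 ± 6.71 (SD, n = 5) normalized reads in sham libraries and 59.9 ± 30.3 (SD, n = 5) in ovariectomized libraries. Its spread was larger in the ovariectomized group, from 26.8 in replicate 2 to 106 in replicate 5. The log2 fold change was -0.04 ± 0.32 (SE), adjusted p 0.976 in limma, and its sign differed between alternatives.

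FBXO32, the muscle F-box receptor that rises in atrophy, was barely represented, with 2 circRNAs. The first, novel_circ_0009578 (chr9:29361907-29364064), had 5 reads in sham replicate 4, 3 in sham replicate 5 and 2 in ovariectomized replicate 2, an exact permutation p of 0.444. The second had 2 reads in sham replicate 2. Over 10 named circRNAs below the filter, the Benjamini-Hochberg adjusted exact permutation p was 1 for each. The RNF169 ring, also below the filter, was not among these 10. Of the 12 muscle ligase genes looked up, 5 gave a circRNA, and FBXO40, TRIM32, TRIM55, TRIM72, KLHL40, KLHL41 and KLHL31 were at 0.

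The BTB-Kelch receptors were led by KLHL24, a receptor that acts on intermediate filaments. Its novel_circ_0000743 (chr1:204270022-204273775, minus strand) averaged 41.8 ± 18.2 (SD, n = 5) normalized reads in sham libraries and 35.3 ± 7.49 (SD, n = 5) in ovariectomized libraries, with the lowest value of 13.6 in sham replicate 1. KLHL18 was lower in level but gave 19.8, 12.1, 6.36, 3.98 and 15.6 normalized reads in sham and 10.3, 15.5, 12.6, 14.7 and 20.8 in ovariectomized libraries for novel_circ_0014595 (chr19:52411265-52415817, minus strand). The 2 lowest values were sham, and the ranges overlapped. Its log2 fold change of 0.68 ± 0.48 (SE) had an adjusted p of 0.834 in limma and was 0.29 without sham replicate 4.

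Among the deubiquitinases, USP13 gave the most reads and USP25 the most circRNAs. USP13, which removes ubiquitin from regulators of autophagy and protein quality control, gave 6 circRNAs with 1475 reads, 4 of them tested. The leading novel_circ_0000765 (chr1:208146664-208151239, minus strand, 3 exons) had 44.6, 44.1, 58.3, 47.8 and 55.1 normalized reads in sham and 36.1, 59.8, 45.3, 63.3 and 84.7 in ovariectomized libraries. Both the lowest and the highest value were ovariectomized. Its log2 fold change was 0.18 ± 0.26 (SE), adjusted p 0.935 in limma. For novel_circ_0000769 (chr1:208148552-208151239) the values were 33.5, 40.8, 27.5, 52.8 and 41.6 in sham and 51.6, 53.6, 55.8, 35.8 and 52.8 in ovariectomized libraries. Of the ovariectomized values 4 stood close together, from 51.6 to 55.8, near or above the highest sham value of 52.8 in replicate 4. They lay above the other sham values, 27.5 to 41.6, while ovariectomized replicate 4 lay among those. The log2 fold change of 0.35 ± 0.25 (SE) had an adjusted p of 0.834 in limma.

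USP25, which encodes a deubiquitinase with a muscle-specific isoform, gave 13 circRNAs with 543 reads, of which novel_circ_0000254 held 300 and the rest 71 or fewer each. USP53, a member of the USP family, showed a ring present or missing by library. Its novel_circ_0007573 (chr6:6425221-6432951, minus strand) was read 0, 6, 19, 0 and 27 times in the sham libraries and 24, 15, 20, 8 and 0 times after ovariectomy. Libraries at 0 occurred in both groups, and a second USP53 ring, novel_circ_0007568, was listed in all 10 libraries.

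**Figure D3:**
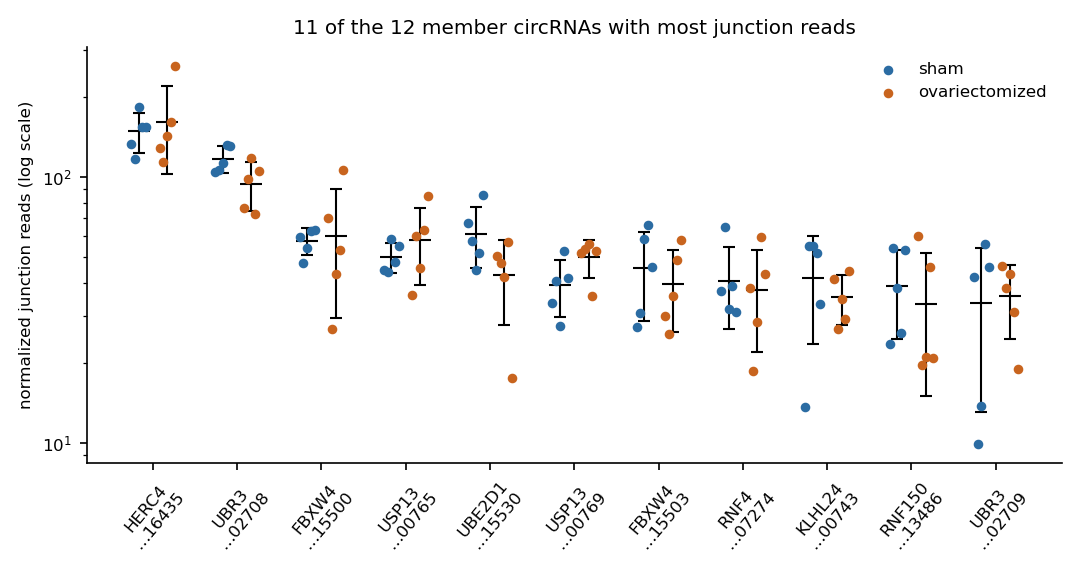
Normalized junction reads (log scale) of 11 of the 12 member circRNAs with most reads, labelled by host and the last digits of the circRNA name. Points are libraries, horizontal bars group means and whiskers SDs (n = 5 per group). The groups overlap for all 11, and HERC4 has the highest mean in both groups.

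Summing all rings of a host changed no call. Of 759 tested hosts 0 passed an adjusted p of 0.05 in limma voom (0% called), and 34 of the tested hosts were member hosts, 13 with a positive and 21 with a negative estimate. Their median log2 fold change was -0.14, beside 0.01 over all tested hosts. At an unadjusted p under 0.05 there was 1 member host, FBXL17, against 5.67% of all tested hosts (43). FBXL17 sums had a log2 fold change of 0.82 ± 0.39 (SE), unadjusted p 0.0486 and adjusted p 0.779 in limma, and 0.43 without sham replicate 5. For UBR2 the value was 1.05 ± 0.59 (SE), adjusted p 0.779 in limma, and 0.58 without ovariectomized replicate 5. For ITCH, a HECT ligase known from immune regulation, whose 7 rings were all below the filter, it was 0.53 ± 0.46 (SE), adjusted p 0.808 in limma, and 0.29 without sham replicate 4. The lowest estimates by p were UBE2D1 with -0.64, USP25 with -0.41 ± 0.24 (SE) and USP40 with -1.70 ± 1.08 (SE), each with an adjusted p of 0.779 in limma. The USP40 value rested on ovariectomized replicate 5, where none of its 5 rings was listed, and was 0.47 without that library. USP25 sums were 80.0, 64.6, 48.0, 47.7 and 75.5 normalized reads in sham and 45.6, 46.9, 58.5, 49.0 and 36.1 in ovariectomized libraries, with overlapping ranges.

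Rings were also set against the non-junction reads the table gives for the same circRNA. The deposit does not define them. They were read here as reads covering the ends of a ring without crossing its junction, and so as a readout of linear RNA. Over the libraries together the tested members had a median of 8.89 junction reads per 100 non-junction reads, below the 15.3 of all 744 tested circRNAs. KLHL18 stood highest, with 101 per 100 for novel_circ_0014595, followed by FBXW4 with 80.3 for novel_circ_0015500 and UBE3D, a HECT-like ligase, with 77.7 for novel_circ_0008771. The lowest were 1.12 for USP13 novel_circ_0000768, 1.17 for novel_circ_0010737 of the E2 gene UBE2G1 and 1.74 for UBR3 novel_circ_0002709. Rings of 1 host could differ widely, as UBR3 novel_circ_0002708 had 5.49 per 100.

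Of 740 ratios tested with limma trend 1 passed an adjusted p of 0.05 (0.135%), and none of the 36 member ratios did. At an unadjusted p under 0.05 there were 2 members, against 8.38% of all tested ratios (62), and both were rings of USP13. The member count was 0 without sham replicate 1 or without sham replicate 3, and 1 without sham replicate 2, ovariectomized replicate 4 or ovariectomized replicate 5. It was 3 without sham replicate 4, sham replicate 5 or ovariectomized replicate 1. Leaving out a library, the share over all tested ratios ran from 6% without sham replicate 2 to 10.3% without sham replicate 4. For circRNAs with an entry in all 10 libraries the member count was 1 of 29, against 8.54% of all tested ratios (52). With a replicate block it was 4 of 36, against 81 of all 739 tested ratios (11%). Of the member ratios 28 were higher and 8 lower in ovariectomized libraries, and over all tested ratios 532 were higher and 208 lower. The median log2 difference was 0.24 for members, beside 0.30 over all tested ratios.

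All 4 tested USP13 rings had higher ratios in ovariectomized libraries. Per 100 non-junction reads, novel_circ_0000769 had 1.74, 2.54, 1.46, 7.60 and 2.77 junction reads in sham and 5.28, 4.55, 5.64, 4.38 and 9.07 in ovariectomized libraries. Every ovariectomized value was above 4 of the 5 sham values, and sham replicate 4 was the exception. The log2 difference was 1.06 ± 0.46 (SE), with an unadjusted p of 0.0347 and an adjusted p of 0.579 in limma. It was 1.31 ± 0.62 (SE) for novel_circ_0000764, 0.93 ± 0.46 (SE) for novel_circ_0000765 and 0.68 ± 0.60 (SE) for novel_circ_0000768, with adjusted p of 0.579, 0.579 and 0.710 in limma. The non-junction reads at novel_circ_0000765 numbered 1536, 1381, 1659, 677 and 1510 in sham and 885, 1062, 916, 823 and 787 in ovariectomized libraries. These counts are not scaled for library size. They were lower in every ovariectomized library than in 4 of the 5 sham libraries, again except replicate 4. The junction reads of this ring, scaled for library size, overlapped between the groups. The 4 rings overlap in exons, so they are not independent of each other. How far they share non-junction reads was not measured. The next member, UBR2 novel_circ_0014764, had a log2 difference of 1.09 ± 0.56 (SE), adjusted p 0.579 in limma.

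**Figure D4:**
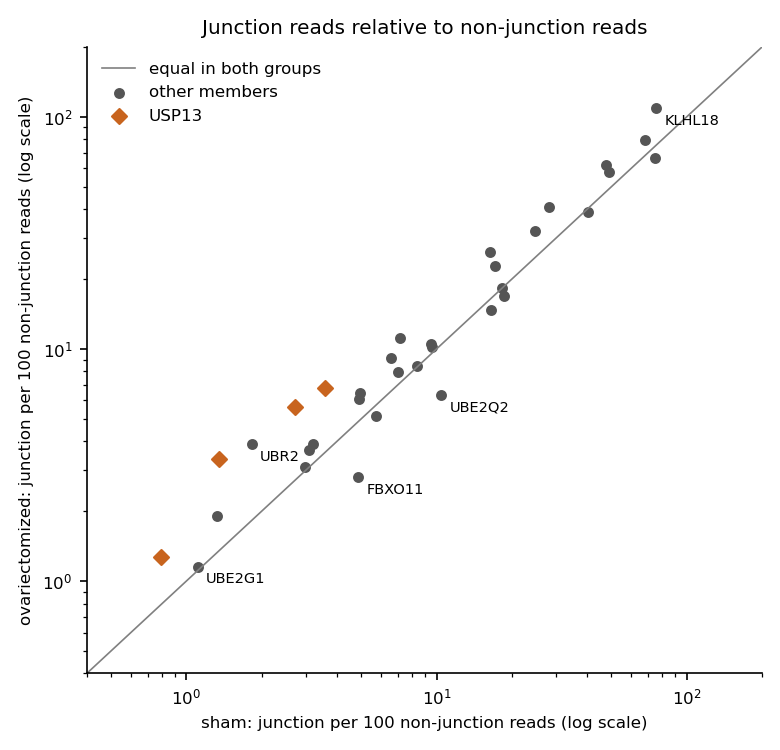
Junction reads per 100 non-junction reads of 34 of the 36 tested members, as group means taken on the log2 scale, sham against ovariectomized (both axes log). Each point is 1 circRNA and the line marks equal values. Of all 36 tested members 28 had a higher ratio in ovariectomized libraries, and these lie above the line where drawn. The 4 USP13 rings are among them.

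Members of 1 host often shared a back-splice end. In the 69 hosts with at least 2 rings, 175 of 270 rings (64.8%) shared their start or end exactly with another ring of the host, and over all such hosts of the table the share was 69.1%. Of 6 USP13 rings 4 used the same downstream end, at position 208146664 of chromosome 1, and held 1014 of 1475 reads. In FBXW4, 3 upstream and 2 downstream ends were combined in all 6 possible ways, with 622 reads for the leading combination and 24 for the rarest. In UBR3, 5 of 12 rings shared the upstream end at position 139714106 of chromosome 2 and held 1542 of 1635 reads. In HERC4, novel_circ_0016434 and novel_circ_0016435 shared their downstream end and their upstream ends lay 5 bases apart, with 233 and 1635 reads. Counts of rings whose ends lie so close are uncertain. The exons the table lists inside a ring reached both ends of the junction for 221 of 310 members, so exon contents are given as deposited.

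The leading ring's share was compared in the 6 hosts with at least 2 tested rings, a comparison added after the data were seen. HERC4 novel_circ_0016435 made up 76.0% ± 5.61 (SD, n = 5) of the reads of tested HERC4 rings in sham libraries and 77.7% ± 4.55 (SD, n = 5) in ovariectomized libraries. For UBR3 novel_circ_0002708 the shares were 79.2% ± 10.2 (SD, n = 5) and 72.4% ± 8.15 (SD, n = 5), with an exact permutation p of 0.238. USP13, FBXW4 and RNF150 differed by -0.866, -1.47 and -5.29 percentage points. Over the 6 hosts the smallest Benjamini-Hochberg adjusted exact permutation p was 0.714.

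**Figure D5:**
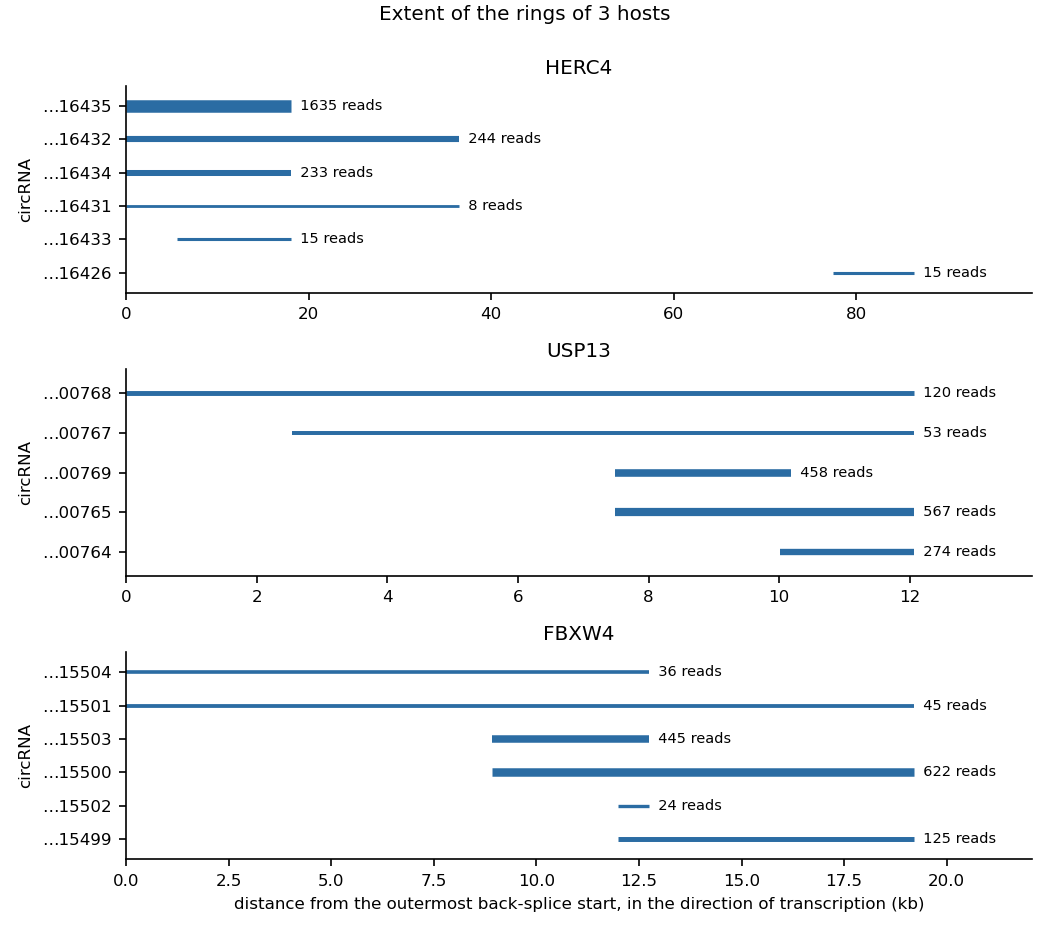
Extent of the rings of HERC4, USP13 and FBXW4 with more than 5 junction reads, drawn to scale within each host as distance (kb) from the outermost back-splice start in the direction of transcription. Line width grows with the square root of junction reads over the 10 libraries, which are printed beside each ring. Rings that share an end line up on the left or right.

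Other genes of the pathway gave no call either. Of 142 genes on the list of further pathway genes 59 hosted circRNAs, and 16 had enough reads to be tested as host sums. None passed an adjusted p of 0.05 in limma (0% of all hosts called). Of the estimates 11 were positive and 5 negative, and the median log2 fold change was 0.10, beside 0.01 over all tested hosts. At an unadjusted p under 0.05 there was 1 of the 16, against 5.67% of all tested hosts (43). It was UBE3A, a HECT ligase gene outside the member rule, with 0.48 ± 0.16 (SE) and an adjusted p of 0.757 in limma. Of the 7 activating enzyme genes 4 hosted circRNAs, and of 25 other deubiquitinase genes 11 did, led by MINDY3. Among 43 proteasome and shuttle genes 11 hosted 16 circRNAs, with 172 reads together and no host tested.

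The authors' deposited table gives its own test for every circRNA. In it 3 of 310 members (0.968%) had a p under 0.05, against 1.35% of all 8721 circRNAs (118). In the authors' deposited table these were RNF169 novel_circ_0012872 with p 0.0084, UBR2 novel_circ_0014764 with p 0.0317 and HUWE1 novel_circ_0017279 with p 0.0438, and each had an adjusted p of 0.966. HUWE1 encodes a giant HECT ligase, and its ring was read 11, 6, 4, 7 and 2 times in sham libraries and 0, 3, 0, 0 and 6 times after ovariectomy.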

How the data were processed

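The library kit was directional according to the labels' protocols, and the submitters' processing notes name HISAT2. For the circRNA caller, the build and the annotation, names were not given in the sources used here. One deposited table packs whole-number junction and non-junction counts into lists. It also carries 10 sample names that match none of the series' samples, which were left aside. The other table holds the authors' group means of normalized signal, their log2 ratio with sham as numerator, and their p-value, raw and adjusted, per the file headers. The lists were unpacked into whole-number counts per library before the fits. The plan kept a plain count model for deposits with plain count columns, so limma voom (limma 3.58.1, statmod 1.5.0, R 4.3.3) was used. Scaling used the trimmed mean of M values (30% of log ratios and 5% of abundances trimmed). Fits used group only, robust empirical Bayes moderation, with p-values adjusted (Benjamini-Hochberg) over all features tested, at 0.05. Ratios were log2 of junction over non-junction reads, each plus 0.5, tested where 3 libraries per group had an entry, and libraries without an entry were left out for that circRNA. Normalized reads are junction reads divided by a library's scaled size over the geometric mean size. Exact permutation tests were two-sided over 252 relabellings, with 0.00794 as the smallest p. The functions were tested on simulated data. No molecular identifiers are described, so PCR copies cannot be told apart from separate molecules.

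Starts count from 1, and chromosome numbers come from the host genes in the RefSeq table of ARS-UI_Ramb_v3.0, in which 308 of 310 members had their host ID. Start and end positions come from the deposit, whose build is not named, and were not checked against ARS-UI_Ramb_v3.0. Members, roles, lists and tests were chosen with earlier results of these data known. Named were members called in any fit, the 4 tested members with the smallest p per direction, the 12 with most reads, the leading hosts of each class, 12 muscle ligase genes, the 3 highest and lowest ratios, and the 3 hosts with the smallest p per direction. Results of a few of these genes are not reported here, though all entered the fits and counts. Alternatives covered scaling, filters, limma trend with pseudocounts of 1 and 5, a replicate block, other denominators and leaving out each library.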

Additional observations from a re-analysis of the deposited data

Results flagged for a closer look

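Of 88 groups of 5 values examined, 8 held a library far from the other 4. Chance flags about 1 in 20 such groups. Ovariectomized replicate 5 stood apart in 3 of the 8, and it is also the deepest library.

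For FBXL17 novel_circ_0006551 ovariectomized replicate 5 had 50.2 normalized junction reads against 18.6 to 25.8 in the other ovariectomized libraries. The same library had 1.26% of junction reads in HECT ligase rings against 0.779% to 0.815%, and 0.303% in BTB-Kelch rings against 0.162% to 0.188%. In USP13 novel_circ_0000769 ovariectomized replicate 4 had 35.8 normalized reads against 51.6 to 55.8. Among sham libraries, replicate 2 had 65.0 normalized reads of RNF4 novel_circ_0007274 against 31.2 to 38.8, and replicate 5 had 36.4 of CUL1 novel_circ_0005853 against 23.1 to 26.9. Sham replicate 4 had 1.03% of its reads in rings of UBR proteins against 0.561% to 0.658%. Sham replicate 1 listed 94 members against 133 to 146 in the other sham libraries.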

How the results depend on the processing

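No member circRNA, host sum or ratio named in the report passed an adjusted p of 0.05 in limma under any alternative, other than RNF169 with no filter beyond 1 read. The count of circRNAs called moved from 0 to 4 when 2 reads in 5 libraries were enough, to 30 with no filter beyond 1 read and to 3 with a replicate block, which called 0 members. Members called moved to 1 with no filter, and members at an unadjusted p under 0.05 moved to 9 of 117 tested (7.69%, against 8.07% of all tested circRNAs), 20 of 310 (6.45%, against 6.19%) and 1 of 36 (2.78%, against 5.78%) under these alternatives. Leaving out each library gave 0 circRNAs called, 0 to 1 members at an unadjusted p under 0.05, and 0 to 2 ratios called. The replicate block gave 0 ratios called. The member median log2 fold change ranged from -0.18 to -0.03 on leaving out libraries, and the difference in member share from -0.0668 to 0.318 percentage points, with -0.197 when the most abundant circRNA was left out of the total. Without single libraries HERC4 novel_circ_0016435 ranged from -0.12 (ovariectomized replicate 5 left out) to 0.21. FBXW4 novel_circ_0015500 turned to 0.061 with library totals, 0.073 with no filter and 0.0056 with the replicate block, and ranged from -0.32 to 0.20 without single libraries. USP40 sums turned to 0.042 by limma trend (pseudocount 5) and 0.30 with the block, and ranged from -2.16 to 0.47 without single libraries. The causes were not tested. Pairing was looked at in the tested circRNAs, as deviations from the group mean on the log2 scale. These deviations correlated by 0.0450, 0.197, 0.0550, 0.0990 and -0.103 between same-numbered samples, so the numbers are not treated as pairs. Before the group mean was taken off, any 2 libraries correlated by 0.479 to 0.674. The filter on low counts left 274 of 310 members untested, and what limits the number of calls was not tested.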
